A study of Gasterosteus aculeatus with 17 samples.

Results

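Among the gill genes of three-spined sticklebacks (Gasterosteus aculeatus), 28 had a lower mean level in fish moved to the other population's water than in fish kept in their own, in marine and in freshwater fish alike. They were picked from 22456 listed genes by their group means in CPM (a gene's count divided by the fish's total count, times 1e6). A gene had to reach a mean of 5 CPM in at least 1 group, which 13681 genes did. In each population the mean of the moved fish plus 0.5 CPM then had to be at least 0.6 log2 units (1.52-fold) below that of the kept fish. The rule would have taken the 150 highest scores, the score being the smaller of a gene's 2 falls, but only 28 genes met it. They are numbered 1 to 28 here in order of that score. The same thresholds were met by 71 genes that were higher in moved fish of both populations, by 155 higher in fresh water in both and by 87 higher in marine water in both.

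The study sequenced polyadenylated RNA of the gills, 1 library per fish, from 17 wild males in breeding dress caught in a lake (freshwater fish) or on a sea coast (marine fish). Moved marine fish (fish 1 to 5) spent 4 days in fresh water and kept marine fish (fish 2 to 5) stayed in marine water. Moved freshwater fish (fish 1 to 4) spent 4 days in marine water and kept freshwater fish (fish 1, 2, 4 and 5) stayed in fresh water. All 4 groups were held captive, and no fish was transferred within its own water, so the change of water and the transfer cannot be told apart.

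The gill is where a fish exchanges gases with the water and, through cells called ionocytes, takes up salt in fresh water or secretes it in sea water. Populations of this species in the sea and in lakes differ in how their gills are set for these tasks, and individual fish can reset them over days when salinity changes. A transfer in either direction is also a handling and osmotic stress, to which fish respond with cortisol. The files give Ensembl gene IDs without names, and none of the 22456 IDs matched the reference gene table, so members are given by ID or number and no role is known for any of them. For the same reason the tissue label could not be checked against marker genes. In whole gill, fewer cells of a type and less RNA per cell cannot be told apart.

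Total counts ran from 6932688 to 16108405 in moved marine fish, 17993109 to 19450343 in kept marine fish, 23736661 to 27949237 in moved freshwater fish and 23609866 to 28960967 in kept freshwater fish. The lowest total belonged to moved marine fish 2. Every moved marine library was shallower than every kept marine library, and every marine library was shallower than every freshwater library. Depth therefore ran with moving in marine fish and with population. With all fish thinned to equal depth, 25 of the 28 members still met the thresholds. Each member had over 200 counts in all.

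The falls that chose the members were moderate apart from 1 gene. In marine fish the log2 ratio of moved over kept means ran from -2.17 to -0.60 with a median of -1.05, and in freshwater fish from -5.90 to -0.60 with a median of -0.78. Over the 13681 genes the medians were -0.03 and 0.10. The fall was larger in marine fish for 19 members and in freshwater fish for 9. These values describe the choice and are not tested. Near the threshold, members 26, 27 and 28 had scores of 0.607, 0.603 and 0.6004, the next 3 genes outside had 0.599, 0.599 and 0.597, and 22 genes scored from 0.5 up to 0.6.

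**Figure D1:**
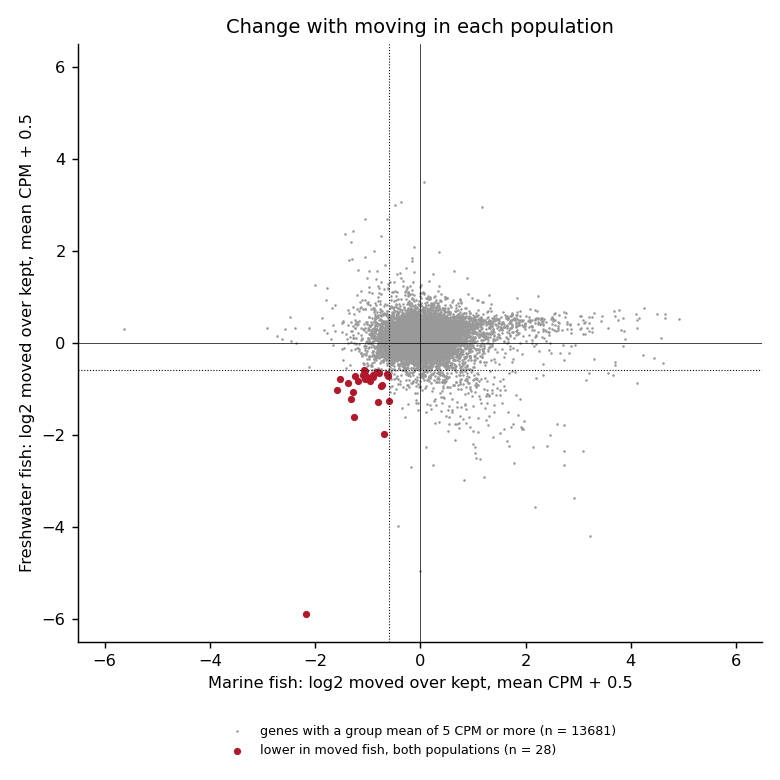
Each point is a gene, with the log2 ratio of moved over kept group means (mean CPM + 0.5) in marine fish on the x axis and in freshwater fish on the y axis; the dotted lines mark -0.6. The 28 members (red) lie below both lines, most of them close to the corner, with 1 gene far out at -2.17 and -5.90.

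How many genes fell by this much in each population alone was counted next. Of the 13681 genes, 357 (2.61%) were lower by the fold of the rule in moved freshwater fish and 768 (5.61%) in moved marine fish. The 28 members are 7.84% of the first list and 3.65% of the second. The 2 populations share no fish in these ratios, but a gene that varies widely between fish can enter both lists. The overlap is therefore only described.

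Most members were uncommon transcripts. Averaged over all fish, 4 members were under 5 CPM, 19 between 5 and 100 CPM and 5 above 100 CPM, with a median of 11.8 CPM. The 5 CPM minimum was reached in both kept groups by 23 members, in kept freshwater fish alone by 4 and in kept marine fish alone by 1. The summed level of all 28 was dominated by 3 abundant genes, members 28, 5 and 14.

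The summed level overlapped between moved and kept fish in both populations. Together the members made up 0.556%, 0.227%, 0.564%, 0.543% and 1.34% of counts in moved marine fish 1 to 5, against 2.05%, 1.23%, 1.55% and 1.32% in kept marine fish 2 to 5. Moved marine fish 5 thus lay within the range of the kept marine fish, and the other 4 below it. In freshwater fish the share was 0.386%, 0.838%, 0.917% and 0.504% in moved fish 1 to 4, against 0.675%, 1.26%, 0.499% and 2.23% in kept fish 1, 2, 4 and 5. Kept freshwater fish 4 was as low as the moved fish, and kept freshwater fish 5 was the highest of all 17 fish. Group means were 0.646% ± 0.413 in moved (SD, n = 5) and 1.54% ± 0.370 in kept marine fish (n = 4), and 0.661% ± 0.257 in moved and 1.17% ± 0.782 in kept freshwater fish (n = 4 each).

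Without the 3 abundant genes the other 25 members summed to 466.7 ± 191 CPM in moved and 969 ± 163 CPM in kept marine fish (SD, n = 5 and 4). They summed to 468 ± 142 CPM in moved and 927 ± 668 CPM in kept freshwater fish (n = 4 each). The spread in kept freshwater fish was again set by fish 5, at 1916 CPM, with the other kept freshwater fish between 464 and 717 CPM.

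**Figure D2:**
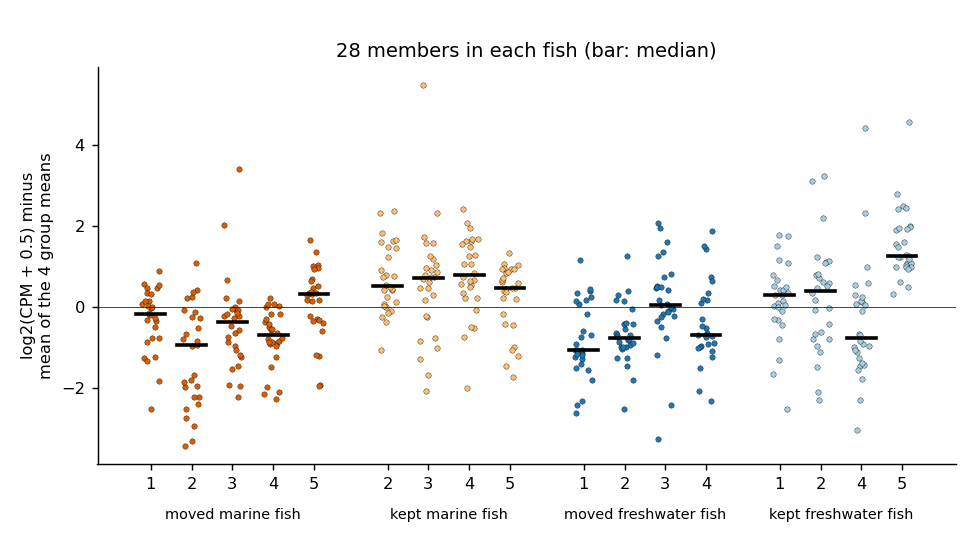
Each point is 1 of the 28 members in 1 fish, as log2(CPM + 0.5) minus the mean of its 4 group means, and each bar is the fish's median. Medians ran from -0.95 to 0.32 in moved marine and 0.47 to 0.80 in kept marine fish, and from -1.05 to 0.06 in moved freshwater and -0.76 to 1.27 in kept freshwater fish, where fish 5 was highest and fish 4 lowest.

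Few members separated moved from kept fish without overlap. The rule chose on the same values, so these counts describe the choice and are not tested. In marine fish, 4 of 28 members were lower in every moved fish than in any kept fish, where 5.53% of the 13681 genes were. Without moved marine fish 5 the count was 16 (9.14% of all genes), and without kept marine fish 3 or 5 it was 7 and 9 (6.26% and 10.4%). In freshwater fish no member (0 of 28) separated the groups, where 3.06% of all genes did. Leaving out 1 freshwater fish at a time gave 0 to 4 members, beside 3.6% to 5.01% of all genes. The 4 came without kept fish 4 (4.52% of all genes). The medians of the groups, which a single high fish moves less than the means, were lower in moved fish of both populations for all 28 members, but only 12 met the thresholds on medians. Of the other 16, each missed the threshold in freshwater fish.

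Kept freshwater fish 5 carried much of the fall in freshwater fish. It was the highest of the 4 kept freshwater fish for 22 of the 28 members (78.6%), and for 30.6% of all 13681 genes. In 14 members a single kept freshwater fish held 50% or more of the group's summed CPM, as it did for 1.53% of all genes. It was kept freshwater fish 2 in members 11, 13 and 22, and fish 5 in the others. Among kept marine fish a single fish held 50% or more in 7 members and 1.92% of all genes. The rule asked for high kept means, which a single high kept fish raises, so these shares describe the choice and are not tested. Kept freshwater fish 4 was the lowest of its group for 18 members and for 27.6% of all genes.

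When kept freshwater fish 5 was left out, 9 of the 28 members still met the thresholds. For the other 19 the freshwater fall was then under 0.6 log2 units, and in 2 of them its sign turned. The median log2 change with moving in freshwater fish was -0.24 without this fish, against -0.78 with it. The number of genes meeting the rule dropped to 11. Leaving out moved freshwater fish 1 kept 18 members, and leaving out any other single fish kept 21 to 28. Without moved freshwater fish 3 or kept freshwater fish 4, 61 and 47 genes met the rule.

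**Figure D3:**
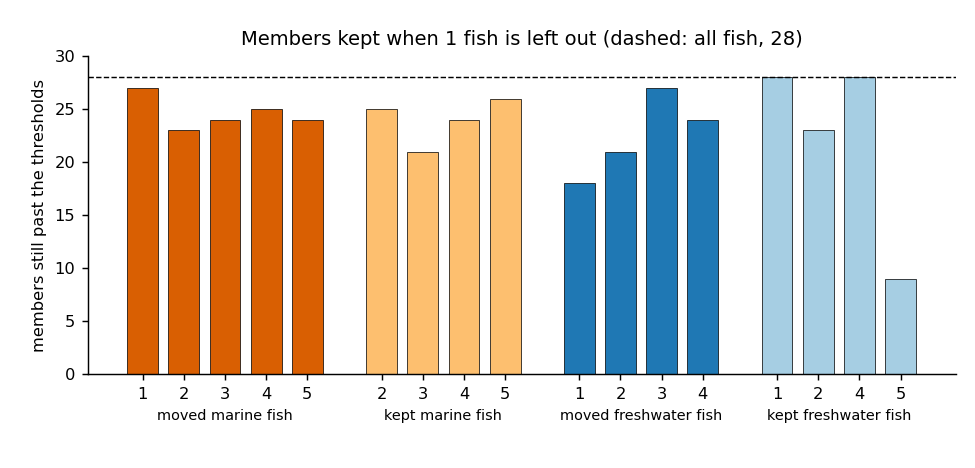
Bars give the number of the 28 members that still met the thresholds when the fish on the x axis was left out. The bar for kept freshwater fish 5 stands at 9, that for moved freshwater fish 1 at 18 and all others at 21 or more.

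In the edgeR test over all 18238 genes that passed the low-count filter, no member was called at an adjusted p below 0.05 for moved over kept fish. All 28 passed the filter. Called lower in marine fish were 0 members, with 1.44% of all genes, in freshwater fish 0 members, with 0.631% of all genes, and averaged over populations 0 members, with 0% of all genes. At an unadjusted p below 0.05, edgeR had 12 members in marine fish, 7 in freshwater fish and 25 averaged over both, where 22.4%, 9.46% and 17.2% of all genes in either direction were. DESeq2 called 1, 1 and 3 members lower, where it called 1733, 347 and 241 of all genes in either direction. For limma voom these were 0, 1 and 0 members, with 244, 627 and 8 of all genes. The rule used these contrasts, so the counts only describe the members.

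The spread between fish of a group was wide for every member. The biological coefficient of variation, edgeR's estimate of that spread, had a median of 58.5% over the 28 members and 24.1% over all tested genes, and all 28 lay above the latter value. The range over members was 26.7% to 184%. The rule set no limit on this spread, and genes that vary widely reach a given fold between group means more readily. The comparison with all genes therefore describes the choice and is not a test.

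ENSGACG00000018668, member 1, was nearly absent from some fish of every group. It was at 0, 0, 29.9, 0.176 and 8.58 CPM in moved marine fish 1 to 5, against 13.8, 126.5, 0.216 and 5.50 CPM in kept marine fish 2 to 5. In freshwater fish it was at 0.072, 0, 0.042 and 0.073 CPM in moved fish 1 to 4, against 0, 0.173, 60.8 and 67.4 CPM in kept fish 1, 2, 4 and 5. The groups overlapped in both populations: kept marine fish 4 and kept freshwater fish 1 and 2 were below 1 CPM, like 7 of the 9 moved fish. The moved freshwater fish held 2, 0, 1 and 2 counts. The marine log2 change was -2.15 (SE 1.29, edgeR adjusted p = 0.33) and was 0.32 without kept marine fish 3.

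ENSGACG00000020145, member 2, was at 14.0, 5.91, 6.21, 5.53 and 2.86 CPM in moved marine fish 1 to 5, against 8.78, 38.0, 18.2 and 3.44 CPM in kept marine fish 2 to 5. In freshwater fish it was at 6.37, 2.77, 10.7 and 1.35 CPM in moved fish 1 to 4, against 8.10, 5.35, 2.36 and 53.3 CPM in kept fish 1, 2, 4 and 5. In both populations the groups overlapped and 1 kept fish stood above the rest. The mean of the other kept freshwater fish, 5.27 CPM, was about that of the moved fish, 5.29 CPM.

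The most abundant member was ENSGACG00000008429, number 28, with a mean of 4288 CPM over all fish. It was at 2028, 1020, 3276, 2968 and 7042 CPM in moved marine fish 1 to 5, against 10095, 5109, 5178 and 7017 CPM in kept marine fish 2 to 5. In freshwater fish it was at 1645, 4052, 3642 and 2247 CPM in moved fish 1 to 4, against 2691, 4680, 1879 and 8318 CPM in kept fish 1, 2, 4 and 5. Only moved marine fish 5 overlapped the kept marine fish, while the freshwater groups overlapped widely. Its log2 change with moving was -1.09 (SE 0.48, edgeR adjusted p = 0.19) in marine and -0.71 (SE 0.51, edgeR adjusted p = 0.75) in freshwater fish. Without kept freshwater fish 5 the freshwater value was -0.21.

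Member 5, the next most abundant, had a similar course. It averaged 2193 ± 1571 CPM in moved and 6552 ± 1886 CPM in kept marine fish (SD, n = 5 and 4), and 2409 ± 1413 CPM in moved and 4941 ± 4562 CPM in kept freshwater fish (n = 4 each). Member 14, the third abundant gene, was one of the 9 that stayed past the thresholds without kept freshwater fish 5. It was at 436, 617, 931 and 1374 CPM in moved freshwater fish 1 to 4, against 1754, 938, 1651 and 1272 CPM in kept fish 1, 2, 4 and 5, so moved fish 4 alone exceeded any kept fish.

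Whether the members differed between the populations was asked on freshwater over marine fish, averaged over moved and kept. The contrast is taken over the same 4 groups as the falls that chose the members. For a member with very unequal falls, such as member 1, the low group behind the larger fall also enters this contrast. Kept freshwater fish 5, which raised the kept mean of many members, also enters the freshwater side of this contrast. The calls are therefore not free of the choice. Without this fish 2 of the 28 members were called higher and 8 lower, against 4 and 7 with it. Of all genes 6070 were then called in either direction, against 6115. The rule also used the contrast through its 5 CPM minimum. That minimum was reached by 4 members in freshwater fish alone and by 1 in marine fish alone. Those 5 could enter only through the population where they were high, so the calls are counted over the other 23. By edgeR 3 of the 23 (13%) were higher in freshwater fish and 6 (26.1%) were lower. Those lower were members 1, 3, 12, 15, 19 and 23. All but member 1 belong to a set that varied together among fish (below), so their calls are not separate observations. Of the 12444 tested genes that reached the minimum in both populations, 19.0% were higher and 16.7% lower. The median log2 difference over the 23 members was -0.23, and over those genes 0.01. In size, ignoring sign, it had a median of 0.50 over the members and 0.27 over those genes. Members also varied more between fish of a group (above), which by itself widens such differences, so the sizes are only described. Of the 5 left out, member 21 was higher and member 6 lower at the same threshold, which describes how they were chosen. No member (0 of 28) kept all freshwater fish apart from all marine fish, where 5.61% of the 13681 genes did.

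ENSGACG00000014250, member 4, had the largest difference in favour of freshwater fish. It was at 1.93, 12.2, 2.65 and 19.1 CPM in moved freshwater fish 1 to 4 and 18.0, 12.2, 26.2 and 21.1 CPM in kept freshwater fish 1, 2, 4 and 5. In marine fish it was at 1.03, 0, 1.37, 0.878 and 5.50 CPM in moved fish 1 to 5 and 2.06, 0.771, 10.6 and 6.58 CPM in kept fish 2 to 5. The kept freshwater fish were above every marine fish, and moved freshwater fish 1 and 3 lay within the marine range. Freshwater over marine fish gave 2.06 log2 units (SE 0.54, edgeR adjusted p = 0.0085), a call kept in all 26 alternative analyses.

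ENSGACG00000018849, member 21, was at 0.680, 1.06, 6.87 and 8.32 CPM in moved freshwater fish 1 to 4 and 3.97, 4.28, 4.03 and 16.2 CPM in kept freshwater fish 1, 2, 4 and 5. In marine fish it was at 0.821, 0.288, 0.993, 1.23 and 1.87 CPM in moved fish 1 to 5 and 1.89, 1.32, 4.11 and 3.70 CPM in kept fish 2 to 5. Its mean reached the 5 CPM minimum in kept freshwater fish alone, so its difference of 1.57 log2 units between freshwater and marine fish is a description, with no test. Member 17 ran parallel to it at 2.22 to 3.00 times its CPM in all 17 fish, with a correlation of 0.99 within groups. Whether reads were shared between these 2 genes cannot be examined in the counts.

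ENSGACG00000020280, member 3, was lower in freshwater fish. It was at 1.00, 2.43, 6.57 and 2.92 CPM in moved freshwater fish 1 to 4 and 7.65, 1.14, 1.14 and 22.7 CPM in kept freshwater fish 1, 2, 4 and 5. In marine fish it was at 11.3, 8.94, 8.38, 7.56 and 15.7 CPM in moved fish 1 to 5 and 28.0, 23.2, 42.0 and 13.7 CPM in kept fish 2 to 5. Except for kept freshwater fish 1 and 5, every freshwater fish was below every marine fish. Freshwater over marine fish gave -1.80 log2 units (SE 0.51, edgeR adjusted p = 0.013), also called in all 26 alternatives. ENSGACG00000018668 was also called lower, at -3.84 log2 units (SE 1.45, edgeR adjusted p = 0.046), but it missed the threshold in 14 of 26 alternatives, where its adjusted p was up to 0.33. Its mean over fish was 16.1 CPM in freshwater and 20.5 CPM in marine fish. The lowest group mean was 0.047 CPM, in moved freshwater fish, against 32.1 CPM in kept freshwater and 36.5 CPM in kept marine fish. That low mean also gave the freshwater fall by which the rule chose this gene, so its call is not separate from the choice.

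**Figure D4:**
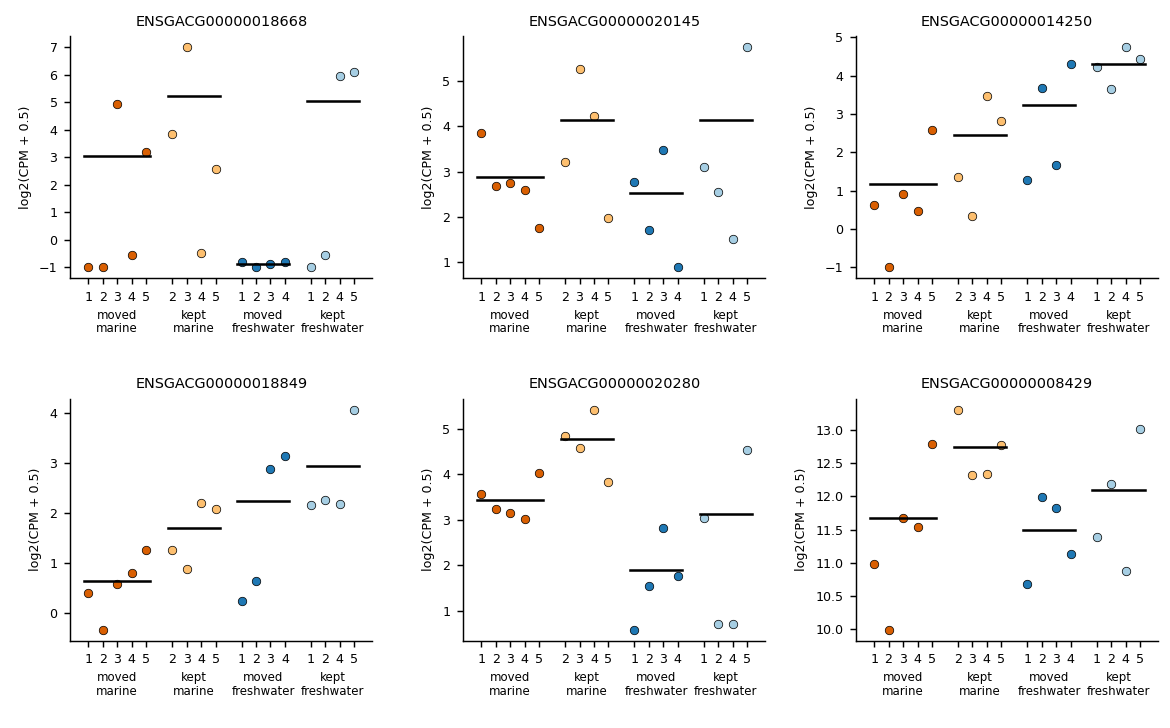
Each panel shows 1 named member as log2(CPM + 0.5) in each fish (points, numbered as in the labels), with lines at the log2 of each group's mean CPM + 0.5. In ENSGACG00000020145, ENSGACG00000018849, ENSGACG00000020280 and ENSGACG00000008429, kept freshwater fish 5 lies well above the other kept freshwater fish.

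Beyond the group means, part of the members varied together among fish of the same group. The choice bears on this, since a kept fish that is high for many genes raises their kept means and is then high in all the members it brought in. After each group's mean log2(CPM + 0.5) was removed, the median Pearson correlation over the 378 pairs of members was 0.35 over 17 fish, and over all pairs of the 13681 genes it was 0.02. Of the pairs, 10.6% of members and 1.67% of all genes reached 0.7. All genes of a fish were read from the same library at the same depth, so the correlations are a description and have no test. Without kept freshwater fish 5, over 16 fish, the median was 0.24 over the members and 0.02 over all genes, and 10.6% and 1.84% of pairs reached 0.7.

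Grouping members at an average correlation of 0.7 gave blocks of 7, 5, 3, 2 and 2 members and left 9 alone. The largest block held members 3, 6, 12, 15, 16, 19 and 23, with correlations of 0.79 to 0.96, and of 0.68 to 0.93 without kept freshwater fish 5. Within their groups its members were high in kept freshwater fish 5, moved freshwater fish 3 and kept marine fish 4 (median 1.18, 0.75 and 0.72 log2 units above the group mean) and low in kept freshwater fish 4 and 2 and moved freshwater fish 1 (-1.12, -0.64 and -0.64). The 4 members that separated moved from kept marine fish, numbers 12, 15, 16 and 23, all belong to it. Of its 7 members, 6 were called lower in freshwater fish, with log2 differences over the block of -1.80 to -0.79. Of the tested genes that reached the minimum in both populations, 16.7% were called lower. Member 6 is among the 6 and reached the minimum in marine fish alone, so its call describes how it was chosen. The 7 varied together, so their calls are not separate observations. None of the 7 stayed past the thresholds without kept freshwater fish 5.

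The block of 5, members 8, 17, 18, 21 and 25, had correlations of 0.59 to 0.99. It was lowest within its group in moved marine fish 2, the shallowest library (-1.67 log2 units), and highest in moved marine fish 5 (1.02), kept freshwater fish 5 (0.97) and moved freshwater fish 3 and 4 (0.88 and 0.69). Between the populations 2 of the 5 were called higher in freshwater fish and none lower. Of the tested genes that reached the minimum in both populations, 19.0% were called higher and 16.7% lower. Member 21 is among the 2 and reached the minimum in freshwater fish alone, so its call describes how it was chosen. The other is member 17, which ran parallel to member 21 (r = 0.99 within groups), so the 2 calls are not separate observations. Members 2, 7 and 24 formed the block of 3, led by kept freshwater fish 5 (1.63) and moved marine fish 1 (1.13). The abundant members 5 and 28 formed a pair in which moved marine fish 5 and kept freshwater fish 5 stood 1.43 and 1.44 units above their group. In each of these 4 sets kept freshwater fish 5 was the highest kept freshwater fish, while in the other pair, members 13 and 22, it was kept freshwater fish 2.

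**Figure D5:**
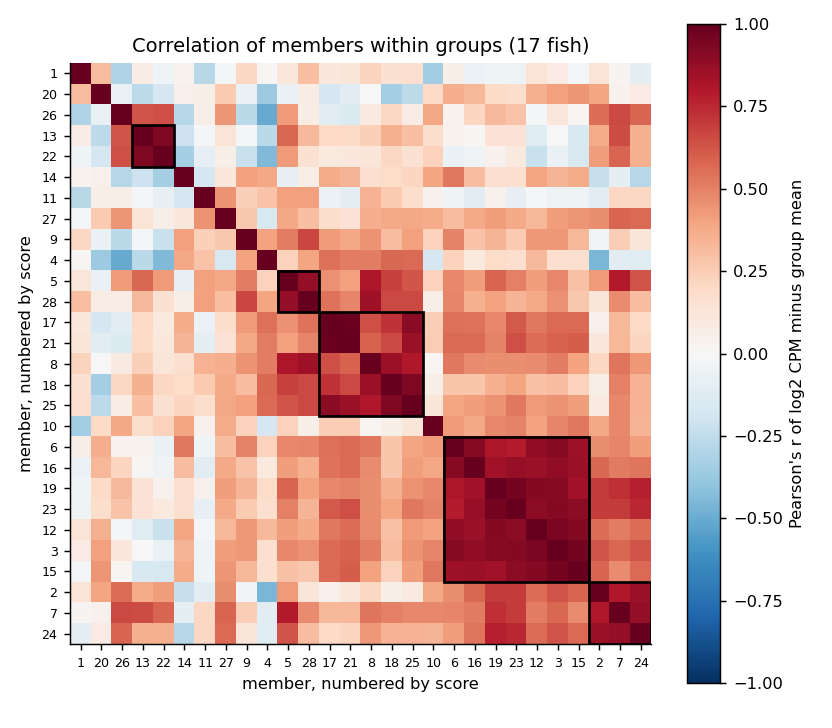
Colours give Pearson's r between members (numbered by score on both axes) over 17 fish after each group's mean log2(CPM + 0.5) was removed, with black frames around the blocks. The frames of 7, 5 and 3 members stand out as dark red, while members 1, 11 and 20 show little relation to the rest.

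Other genes followed the largest block among fish of a group. Outside the members, 96 genes had a correlation of at least 0.8 with its mean course, and 76 of them (79.2%) had lower means in moved fish of both populations, as did 19.2% of the 13653 other genes. Their median log2 changes with moving were -0.46 in marine and -0.14 in freshwater fish. None could meet both thresholds, since genes that do are members and were left out. The block of 3 had 288 such genes, 256 of them (88.9%) lower in both, with medians of -0.44 and -0.17. For the block of 5, 8 of 34 genes (23.5%) were lower in both. Genes that follow a block with 1 very high kept fish have a raised mean in that kept group, so these shares are not independent of kept freshwater fish 5.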

How the data were processed

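The authors' deposited table holds raw whole-number counts of 17 fish per gene. CASAVA 1.8.2 and TopHat2 2.1.0 are named per the submitters' processing notes. Which tool counted reads, on which build and annotation, is not given in the sources used here. The members, and the gene lists and tests considered, were chosen with earlier results of these data known. None of 22456 IDs matched the reference table (52177 genes of assembly fGasAcu3.hap1.1), so no marker list was used and no sequence is printed. Member numbers follow the score.

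CPM uses column totals. Tests used edgeR 4.0.16: filterByExpr by group (minimum count 10), TMM scaling, 1 fit of the 4 groups by glmQLFit (legacy = FALSE), and Benjamini-Hochberg adjustment over 18238 genes at 0.05. Standard errors are the log2 change divided by the root of F. Column totals put the median change with moving in freshwater fish at 0.10 log2 units over 13681 genes, TMM at 0.00 over 18238. Alternatives included DESeq2 1.42.0 and limma 3.58.1. The edgeR fit was tested on simulated data, and the steps in Python were not (R 4.3.3, Python 3.11.15, fixed seed of 1).

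In 10 members (35.7%) all 17 counts are multiples of the same number (2 or more), as in 4873 of 17449 genes (27.9%) with over 200 counts. The sources do not say why, and the true counting error may exceed what the values show. Between fish of a group, chi-square values divided by their degrees of freedom were 30.6 to 126.7, well above sampling noise, so each fish counts once. These values sum over all genes, and abundant genes weigh most in them. Some members held few counts in the shallower libraries, such as member 22 with 19, 0, 0, 20 and 0 in moved marine fish 1 to 5. How much depth adds to their spread was not tested.

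Fish are separate wild animals that share only numbers across groups, so no pairing was used. Named members, by the rule set with the design, are the 2 largest scores (none separated moved from kept fish in both populations), the 2 largest rises and falls among those called between populations, and the most abundant.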

Additional observations from a re-analysis of the deposited data

Results flagged for a closer look

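In groups of 4 or 5 fish, a fish was marked when its gap to the nearest other fish, divided by the group's range, exceeded the 95% value of Dixon's test. Over the 6 named members, the summed level and the median deviation, 5 of 32 groups were marked. Chance marks about 1 in 20 of normally spread values. These values come from genes chosen by their group means and share the same fish, so that rate may not hold. ENSGACG00000018668 was marked for moved marine fish 3, at 29.9 CPM, and for kept marine fish 3, at 127 CPM. ENSGACG00000020145 was marked for kept freshwater fish 5, at 53.3 CPM. ENSGACG00000018849 was marked for the same fish, at 16.2 CPM. ENSGACG00000014250 was marked for moved marine fish 5, at 5.50 CPM. Over all 28 members, 8 of 112 groups were marked, 4 of them for kept freshwater fish 5.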

How the results depend on the processing

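Which genes are members depended most on kept freshwater fish 5 and on the use of group means rather than medians. The number of genes meeting the rule was within 1.5 times of 28 under every other scaling, pseudocount and depth tried (20 to 39), and 11 to 61 without single fish. Members still past the thresholds were 20 to 28 under those settings except 12 with group medians, and 9 to 28 without single fish. Over all 28 members, those called higher in freshwater fish were 2 with limma voom and 1 to 5 without single fish, against 4. Those called lower stayed within 1.5 times of 7 in all alternatives (5 to 8 without single fish). Over all genes the alternatives called 5108 to 6822 in either direction, against 6115. These member counts include the 5 left out above, and the count over the other 23 was not repeated in the alternatives. Members called lower in moved fish were 0 in the main analysis. DESeq2 called 1 in marine fish, 1 in freshwater fish and 3 averaged over populations, beside 1733, 347 and 241 of all genes in either direction. Limma voom called 1 in freshwater fish, beside 627 of all genes. Leaving out single fish gave 0 to 1 in freshwater fish, beside 37 to 180 of all genes. In marine fish and averaged it gave 0 members, beside 0 to 1222 and 1 to 24 of all genes in either direction. Where no gene at all was called, 0 members says nothing about the members.

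Of the named members, ENSGACG00000018668 turned to 0.32 (log2, moved over kept marine fish; -4.09 to 0.32 without single fish) and ENSGACG00000020145 to 0.10 (freshwater over marine fish; -1.14 to 0.10) without kept marine fish 3. The cause of the other changes was not tested. The fish number was also used as a replicate block, which the design does not make a pairing. Same-numbered fish correlated at -0.39 to 0.26 over 21 pairs. The block gave 3 members higher and 6 lower in freshwater fish, beside 5174 of all genes in either direction. For moved over kept fish it called 0 members lower in each population and averaged. Of all genes it called 0 in marine fish, 96 in freshwater fish and 1 averaged, in either direction. The filter of 5 CPM in 4 fish left 25 members to test. The older quasi-likelihood estimate gave 4 higher and 6 lower in freshwater fish, beside 5845 of all genes in either direction. This estimate, the count over 23 members and the correlations without kept freshwater fish 5 were added after seeing the data.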
